A study of Schizosaccharomyces pombe
Saccharomyces cerevisiae with 16 samples.

Results

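The superoxide dismutase and catalase genes of budding yeast (Saccharomyces cerevisiae) were measured in strains built for auxin-induced degradation of the Mediator subunits Med14 or Med17. The members were taken by systematic gene ID, with earlier results of these data known, and are 5 of the 6859 genes in the table of newly synthesized RNA and of the 6805 genes in the table of total RNA. They are SOD1 (YJR104C), CCS1 (YMR038C), SOD2 (YHR008C), CTT1 (YGR088W) and CTA1 (YDR256C). Superoxide dismutases turn superoxide, a by-product of respiration, into oxygen and hydrogen peroxide, and catalases break hydrogen peroxide down to water and oxygen. Sod1 is the copper and zinc enzyme of the cytosol and receives its copper from the chaperone Ccs1, whereas Sod2 is the manganese enzyme of the mitochondrial matrix. Ctt1 is the cytosolic catalase T, known as a gene of the general stress response, and Cta1 is the peroxisomal catalase A, which works beside fatty acid oxidation and is known to be repressed by glucose.

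The study concerned the part that architectural subunits of Mediator, the coactivator complex of RNA polymerase II, play in global transcription. Both strains were MATalpha, expressed the rice protein OsTIR1 from the strong pGPD1 promoter and lacked ADE2, LEU2, LYS2, MET15 and URA3, with his3 and trp1 deletions as well. One strain carried the auxin degron IAA7 on MED14 (OsTIR1 MED14-IAA7) and the other on MED17 (OsTIR1 MED17-IAA7), although the genotype field of the Med17 samples repeats the MED14 tag. Cultures in YPD medium, which contains glucose, were kept for 30 min with 500 μM auxin or with DMSO, its solvent. All groups were then labelled for 6 min with 4-thiouracil (4tU) at 5 mM. Cells were mixed with S. pombe cells at 1 to 3 before RNA extraction. The purified 4tU-labelled fraction, called new RNA here, and total RNA were sequenced. There were 16 libraries, with 2 biological replicates in each of 8 groups by strain, treatment and kind of RNA. There was no strain without a degron among the samples, so auxin itself and loss of the tagged protein cannot be told apart, and protein levels are not in these data.

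Raw totals were 3.83 to 13.96 M counts (M, 1e6) per library for new RNA and 3.30 to 8.84 M for total RNA. The 3 alpha-cell markers together had at least 2902 raw counts in every new RNA library and at least 1433 in every total RNA library, while the 4 markers of the other mating type reached at most 215 and 49, with MFA1 at 0 to 11. The deleted genes ADE2, LYS2 and MET15 had at most 3 raw counts in any library. RGR1, which encodes Med14, and SRB4, which encodes Med17, were transcribed in all groups. In the Med14 strain new RGR1 RNA went from 3956 ± 394 normalized counts to 1648 ± 84.8 with auxin, and in the Med17 strain new SRB4 RNA went from 2199 ± 158 to 333 ± 22.3 (SD, n = 2). As the degron removes protein, such RNA values are no check of a label. In bulk RNA, fewer contributing cells and less RNA per cell cannot be told apart.

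None of the 5 genes overlapped another annotated gene of the tables, and all are protein-coding genes of the sacCer3 build. SOD1 lies on chromosome X from 622550 to 623014, with YJR103W ending 60 bp away. CCS1 lies on chromosome XIII from 347511 to 348260 and SOD2 on chromosome VIII from 122889 to 123590, with YHR007C-A 124 bp away. CTT1 lies on chromosome VII from 654634 to 656322, and CTA1 on chromosome IV from 968133 to 969680. Their deposited median transcript lengths are 465, 750, 702, 1689 and 1548 bp in the order of naming.

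The 5 genes spanned most of the range of yeast transcript levels. Levels were compared between genes per kilobase of deposited transcript length on the authors' normalized scale. In the new RNA of the Med14 strain in DMSO, SOD1 had 21326 ± 2040 normalized counts per kb, rank 100 of the 6072 tested genes. CCS1 followed with 5063 ± 119 and SOD2 with 4741 ± 38.7, neighbours in this order whose libraries did not overlap although their means were close. The catalases were far lower, CTT1 at 372 ± 31.2 and CTA1 at 121 ± 4.12 per kb (SD, n = 2), at percentiles 20.6 and 9.75 of the tested genes. In the Med17 strain in DMSO the order was the same, from SOD1 at 42352 ± 2354 (rank 20), CCS1 at 9286 ± 792 and SOD2 at 6816 ± 475 to CTT1 at 190 ± 20.8 and CTA1 at 79.8 ± 1.35. Total RNA in DMSO kept SOD1 on top, at percentile 97.4 of 5625 tested genes in the Med14 strain and 99.2 in the Med17 strain. There CCS1 (1358 ± 29.3 per kb) and SOD2 (1388 ± 67.0) did not differ beyond their spread in the Med14 strain, and CTA1 was near the bottom at percentile 1.99. With 15 to 28 raw counts per DMSO library, total CTA1 RNA was the least precisely measured value of the set.

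New RNA of the superoxide dismutase genes dropped deeply when auxin was given, and each auxin library lay below every DMSO library of its strain. SOD1 had 10588 and 9246 normalized counts in the DMSO libraries of the Med14 strain and 942 and 1230.2 with auxin. Its Med17 libraries had 18919.6 and 20468 in DMSO and 1952 and 937 with auxin. Auxin thus left 11.0% of new SOD1 RNA in the Med14 strain and 7.33% in the Med17 strain, where the auxin replicates differed about as 2 to 1. The log2 fold changes were -3.19 (SE 0.255, edgeR quasi-likelihood with Benjamini-Hochberg adjustment, adjusted p = 1.63e-09) and -3.77 (SE 0.261, adjusted p = 9.05e-11).

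CCS1, the copper chaperone that activates Sod1, followed the same course. Its new RNA was 3860.2 and 3734 in Med14 DMSO and 536 and 552 with auxin. The Med17 strain had 7385 and 6544 in DMSO and 758 and 539 with auxin. The groups were far apart in both strains, with 14.3% and 9.31% left, and the replicates lay closest in the Med14 auxin group and furthest apart in the Med17 auxin group. The log2 fold changes were -2.80 (SE 0.167, edgeR adjusted p = 6.97e-11) and -3.43 (SE 0.170, adjusted p = 2.54e-12).

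SOD2, the mitochondrial enzyme, showed the widest gap between the strains. In the Med14 strain its new RNA was 3309 and 3347 in DMSO and 546 and 529 with auxin. The Med17 libraries had 5021 and 4549 in DMSO and 341 and 209 with auxin. The Med17 strain thus started higher and ended lower, with 16.1% left in the Med14 strain and 5.74% in the Med17 strain. The log2 fold changes were -2.63 (SE 0.184, edgeR adjusted p = 3.55e-10) and -4.13 (SE 0.197, adjusted p = 1.91e-12).

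The catalases kept more of their new RNA. CTT1 had 666 and 592 normalized counts in Med14 DMSO and 139 and 121 with auxin. Its counts with the Med17 degron were 297 and 347 in DMSO and 65.2 and 48.4 with auxin. Both strains lay lower with auxin, with 20.7% and 17.6% left. CTA1 had 183 and 192 in Med14 DMSO and 79.9 and 85.4 with auxin. For CTA1 the Med17 strain gave 122 and 125 in DMSO and 59.4 and 60.1 with auxin. Its replicates nearly coincided, and 44.1% and 48.4% were left. The log2 fold changes of CTT1 were -2.27 (SE 0.200, edgeR adjusted p = 5.09e-09) and -2.51 (SE 0.216, adjusted p = 1.96e-09), and those of CTA1 -1.18 (SE 0.211, adjusted p = 3.47e-05) and -1.05 (SE 0.225, adjusted p = 0.000241).

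**Figure D1:**
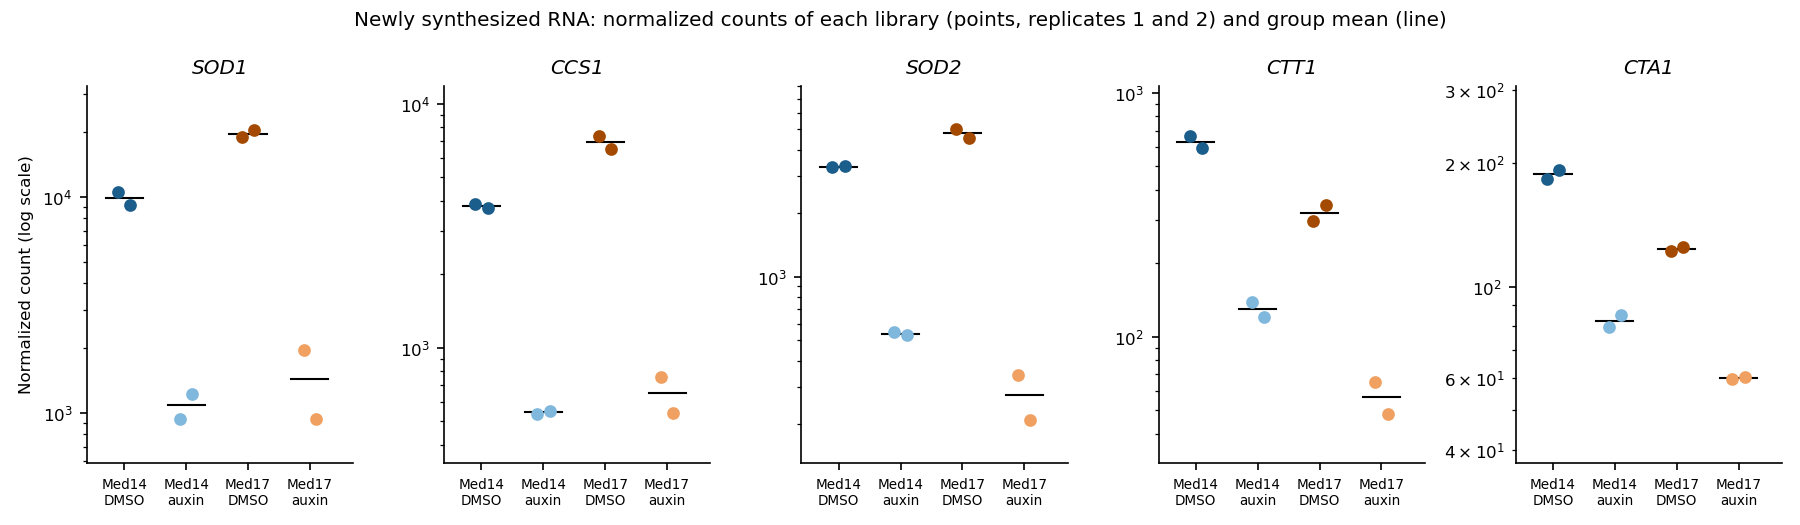
New RNA of each gene by group, as normalized counts on a log axis, with a point for each of the 2 libraries of a group and a line at their mean. In all 5 genes both auxin libraries of a strain lie below both DMSO libraries, with the smallest gap at CTA1 in the Med17 strain (122 and 125 against 59.4 and 60.1).

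All 5 members were called lower and 0 higher with auxin in new RNA in both strains. Among all tested genes 94.2% were called lower and 0.560% higher in the Med14 strain, and 95.0% lower and 1.70% higher in the Med17 strain, so the calls by themselves are at the background. What distinguished the genes was the size of the change beside the all-gene medians of -1.86 and -2.71. SOD1, CCS1 and SOD2 lay below the median in both strains, at percentiles 4.56, 10.5 and 14.0 of all log2 fold changes in the Med14 strain, and at 11.4, 18.8 and 6.39 in the Med17 strain. CTT1 lay at percentiles 26.3 and 60.8, and CTA1 near the other end at 88.7 and 94.8.

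These directions rest on the authors' scaling, which retains a drop common to all genes. On the TMM scale, which sets the typical gene to about 0, SOD1 (-1.31 and -1.12), CCS1 (-0.91 and -0.75) and SOD2 (-0.74 and -1.46) were still called lower in the Med14 and Med17 strains. CTT1 was not called with TMM (-0.38, edgeR adjusted p = 0.0983, and 0.16, adjusted p = 0.519), and CTA1 turned to called higher (0.71 and 1.64). On that scale 25.4% and 28.7% of all tested genes were called higher.

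In total RNA, which also holds molecules made before auxin was added, the changes were smaller. The normalized counts of the new RNA and total RNA tables were scaled separately and are not compared as levels. SOD1 total RNA was 5564 and 4269 in Med14 DMSO and 3114 and 2549.8 with auxin. The Med17 strain had 10182 and 10965 in DMSO and 3767 and 3539.6 with auxin. Both groups of each strain were separate, with 57.6% left in the Med14 strain and 34.6% in the Med17 strain. The log2 fold changes were -0.80 (SE 0.143, edgeR adjusted p = 0.000424) and -1.53 (SE 0.145, adjusted p = 9.11e-07).

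CCS1 lost the largest share of its total RNA among the 5 genes. It had 1034 and 1003 in Med14 DMSO and 477 and 293 with auxin. The Med17 libraries had 2449 and 2233 in DMSO and 432 and 434 with auxin. The Med14 auxin replicates were far apart, yet both lay under the DMSO libraries, and 37.8% was left against 18.5% in the Med17 strain. The log2 fold changes of -1.40 (SE 0.178, edgeR adjusted p = 5.31e-05) and -2.43 (SE 0.179, adjusted p = 2.69e-07) were at percentiles 11.7 and 5.74 of all tested genes. They were also called lower with TMM (-0.69 and -1.17).

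SOD2 total RNA was 1008 and 941 in Med14 DMSO and 805 and 736 with auxin. With Med17 tagged it was 1787 and 1813 in DMSO and 599 and 567 with auxin. The Med14 groups were close but separate, with 79.1% left, and the Med17 groups were far apart, with 32.4% left. The log2 fold change was -0.34 in the Med14 strain (SE 0.109, edgeR adjusted p = 0.0139) and turned to called higher with TMM (0.38), beside 19.6% of all genes. Its call was lost without Med14 DMSO replicate 1 (-0.29, adjusted p = 0.0711) or Med14 auxin replicate 2 (-0.28, adjusted p = 0.0967). In the Med17 strain it was -1.63 (SE 0.110, adjusted p = 2.29e-07) and -0.36 with TMM (adjusted p = 0.0106).

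The 2 catalases went opposite ways in total RNA. CTT1 had 152 and 147 in Med14 DMSO and 86.4 and 52.8 with auxin. Med17 libraries had 79.3 and 70.7 in DMSO and 24.8 and 18.8 with auxin. Auxin libraries were again the lower ones, with 46.6% and 29.1% left and log2 fold changes of -1.08 (SE 0.220, edgeR adjusted p = 0.000957) and -1.75 (SE 0.263, adjusted p = 3.98e-05). CTA1 had 24.6 and 16.1 in Med14 DMSO and 30.3 and 36.1 with auxin. In the Med17 strain CTA1 had 19.8 and 18.9 in DMSO and 40.6 and 50.8 with auxin, from 15 and 28 raw counts in DMSO and 54 and 62 with auxin. The auxin libraries were the higher ones in both strains, at 163% and 236% of DMSO. CTA1 total RNA rose in the Med17 strain (log2 fold change 1.24, SE 0.290, edgeR adjusted p = 0.00140), whereas the Med14 value did not pass the test (0.69, SE 0.330, adjusted p = 0.0720). The latter was called when Med14 DMSO replicate 1 was left out (1.03) and with TMM (1.41, adjusted p = 0.00697), and the former remained called with each library left out in turn (1.07 to 1.40).

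**Figure D2:**
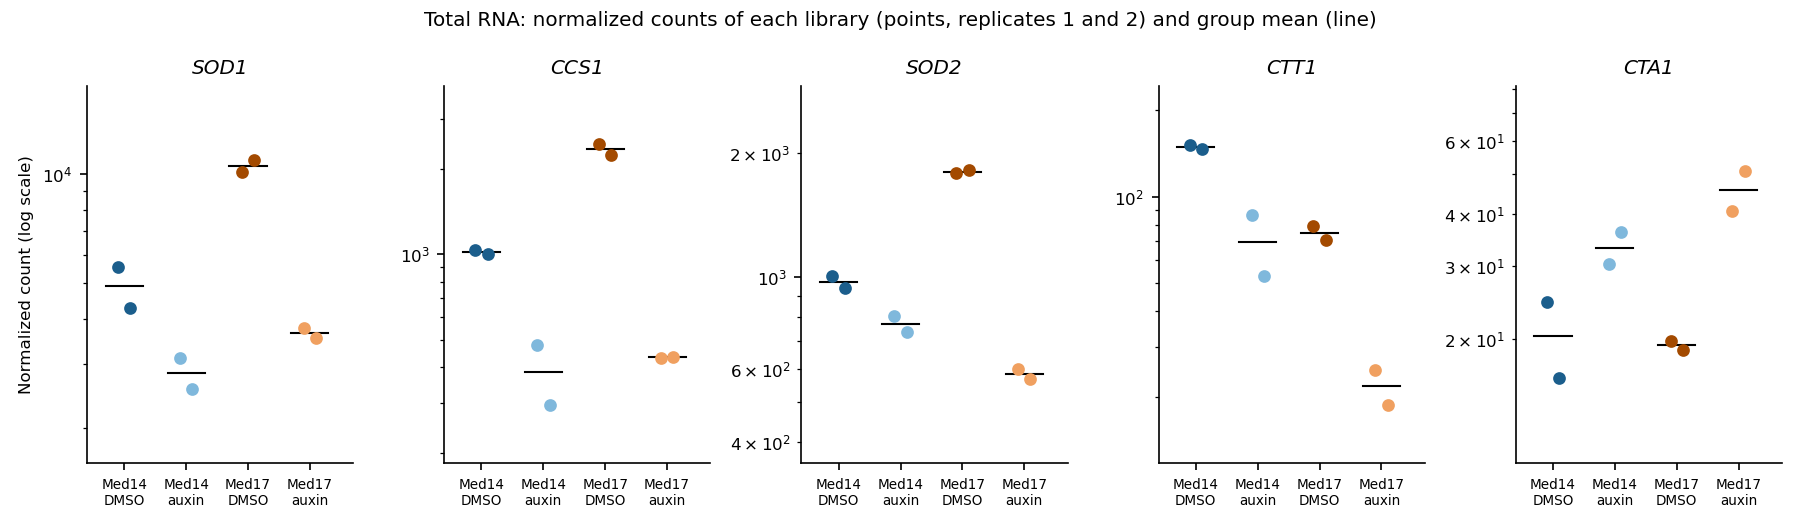
Total RNA of each gene by group, as normalized counts on a log axis, with points for the 2 libraries of each group and a line at their mean. SOD1, CCS1, SOD2 and CTT1 are lower with auxin in both strains, while CTA1 runs from 19.8 and 18.9 in Med17 DMSO up to 40.6 and 50.8 with auxin.

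By count, 4 of the 5 members were called lower in total RNA in each strain, beside 75.1% of all tested genes in the Med14 strain and 87.4% in the Med17 strain. CTA1 was called higher in the Med17 strain, where 2.42% of genes were (1.62% in the Med14 strain, with 0 members), and its change lay at percentile 98.2. Its new RNA was called lower in the same comparison. Of 5596 genes tested in both kinds of RNA, 37 were called lower in new RNA and higher in total RNA in the Med17 strain, which is 0.677% of the former and 27.8% of the latter, and CTA1 was among them. With TMM the total RNA calls of SOD1 and CTT1 were lost in both strains (-0.088 and -0.27 for SOD1, -0.36 and -0.50 for CTT1).

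**Figure D3:**
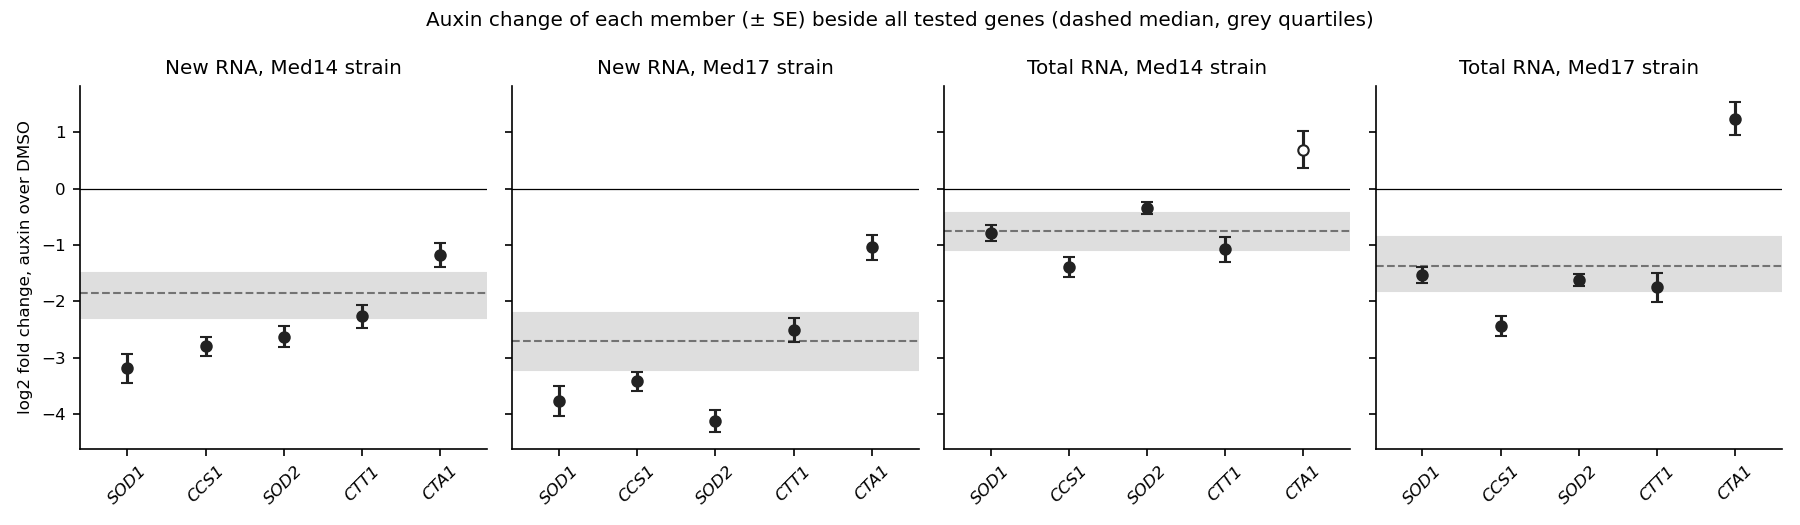
log2 fold changes with auxin (points, bars are ± SE) in new and total RNA of both strains, filled where the edgeR adjusted p is under 0.05, beside the median of all tested genes (dashed) and their quartiles (grey). SOD1, CCS1 and SOD2 lie under the grey band in new RNA, while CTA1 lies above it in all 4 panels and reaches 1.24 in the total RNA of the Med17 strain.

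Whether auxin acted differently on these genes in the 2 strains was tested as the auxin change of the Med14 strain less that of the Med17 strain. Values above 0 stand for a deeper drop in the Med17 strain. In new RNA SOD2 differed by 1.50 (SE 0.251, edgeR adjusted p = 0.000108) and CCS1 by 0.62 (SE 0.222, adjusted p = 0.0220). These 2 of 5 calls stand beside 59.6% of all genes called in that direction. SOD1 differed by 0.58 (adjusted p = 0.137, 95% interval -0.12 to 1.28), CTT1 by 0.24 (adjusted p = 0.475, -0.36 to 0.84) and CTA1 by -0.14 (adjusted p = 0.706, -0.79 to 0.51), and these intervals hold 0 as well as sizeable differences. The SOD1 value ran from 0.14 to 1.20 with single libraries left out, and it was called without Med17 auxin replicate 1 (1.20, adjusted p = 0.000911) or Med14 auxin replicate 1 (0.76, adjusted p = 0.0274). In total RNA the difference was 0.74 for SOD1 (SE 0.201, adjusted p = 0.0137), 1.04 for CCS1 (SE 0.246, adjusted p = 0.00732) and 1.29 for SOD2 (SE 0.154, adjusted p = 0.000390), 3 of 5 beside 41.3% of all genes. CTT1 (0.68, adjusted p = 0.132, -0.085 to 1.44) and CTA1 (-0.55, adjusted p = 0.332, -1.52 to 0.43) did not pass. Without Med14 auxin replicate 1 the CCS1 value was 0.64 (adjusted p = 0.0292), and without Med14 auxin replicate 2 CTT1 was called (0.97, adjusted p = 0.0312). The difference of SOD2 exceeded the all-gene medians of 0.82 in new and 0.54 in total RNA, at percentiles 84.2 and 92.1, and was also called with TMM in both kinds of RNA (0.72 and 0.74). Counted from the same medians, the CTA1 differences lay at -0.961 in new RNA and -1.09 in total RNA. They thus lay below the typical gene, although neither passed against 0, and the distance from the median was not tested. With TMM the auxin changes of new CTA1 RNA were 0.71 in the Med14 strain and 1.64 in the Med17 strain. The CCS1 value in new RNA lay under the all-gene median, at percentile 38.8. It turned to -0.16 with TMM (adjusted p = 0.489) and its call was lost with 4 of the 8 libraries when left out in turn (0.40 to 0.89), and the total RNA calls of SOD1 and CCS1 were lost with TMM (0.18 and 0.48). The SOD1 total RNA call was also lost without auxin replicate 1 of the Med14 strain (adjusted p = 0.0622).

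The strains already differed in DMSO, without auxin, and this start enters the differences above. Both superoxide dismutase genes and the chaperone gene CCS1 were higher in the Med17 strain. New RNA of SOD1 was higher by a log2 fold of 0.99 (SE 0.236, edgeR adjusted p = 0.00409), CCS1 by 0.88 (SE 0.156, adjusted p = 0.000487) and SOD2 by 0.52 (SE 0.172, adjusted p = 0.0288). These 3 of 5 calls stand beside 6.04% of all tested genes called higher, and the values lay at percentiles 97.8, 97.2 and 94.3. Total RNA showed differences in the same direction, with 1.10 for SOD1 (SE 0.143, adjusted p = 0.000352), 1.20 for CCS1 (SE 0.171, adjusted p = 0.000670) and 0.89 for SOD2 (SE 0.108, adjusted p = 0.000221), 3 of 5 beside 9.69%. As fold ratios of total RNA these are 2.15, 2.30 and 1.85. The DMSO libraries of the strains, given above, did not overlap for any of these genes in either kind of RNA.

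CTT1 ran the other way. Its new RNA was lower in the Med17 strain in DMSO, at -0.96 (log2, SE 0.196, edgeR adjusted p = 0.00133) and its total RNA by -1.01 (SE 0.211, adjusted p = 0.00699). Called lower were 2 of the 5 members in new RNA, CTT1 and CTA1 (-0.60, SE 0.219, adjusted p = 0.0458), beside 24.1% of all genes, and 1 of 5 in total RNA beside 5.83%. CTT1 in total RNA lay at percentile 1.78, and CTA1 total RNA did not differ beyond its error (-0.081, SE 0.344, adjusted p = 0.904). With TMM the strain differences of SOD1, CCS1, SOD2 and CTT1 were called in both kinds of RNA in the same direction, from 0.70 to 1.17 for the first 3 and -0.78 and -1.08 for CTT1, and CTA1 was not (-0.42 in new RNA). When scaled instead to SCR1 and RPR1, 2 RNAs made by RNA polymerase III, the total RNA calls of SOD1, CCS1 and SOD2 were lost (0.80, 0.85 and 0.55), as was that of CTT1 in new RNA (-0.31), and CTA1 in new RNA was at 0.039. Several of these calls depended on single libraries. In new RNA, SOD2 and CTA1 lost theirs with any of the 4 DMSO libraries left out (0.45 to 0.59 and -0.64 to -0.57), SOD1 without Med14 DMSO replicate 2 (0.90, adjusted p = 0.0719), and CTT1 in total RNA without Med17 DMSO replicate 2 (-0.91, adjusted p = 0.0854).

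With auxin the strains were set against each other again. SOD2, higher in the Med17 strain in DMSO, was lower there with auxin, at -0.97 (log2) in new RNA (SE 0.182, edgeR adjusted p = 0.000103) and -0.40 in total RNA (SE 0.110, adjusted p = 0.0110). These are near the all-gene medians of -1.0 and -0.49, and with TMM neither was called (-0.019, adjusted p = 0.942, and 0.061, adjusted p = 0.731). The total RNA call was also lost without Med14 auxin replicate 1 (-0.34, adjusted p = 0.0789) or Med17 auxin replicate 2 (-0.36, adjusted p = 0.0833). CTT1 stayed lower in the Med17 strain, at -1.20 in new RNA (SE 0.212, adjusted p = 5.93e-05) and -1.68 in total RNA (SE 0.275, adjusted p = 0.00195), the latter at percentile 1.07. With TMM the total RNA value was still called (-1.22, adjusted p = 0.00968) and the new RNA value was not (-0.24, adjusted p = 0.395). Called lower were thus 2 of 5 members in new RNA beside 85.0% of all genes, and 2 of 5 in total RNA beside 52.2%. SOD1 was higher in total RNA by 0.37 (SE 0.143, adjusted p = 0.0464), beside 1.92% of genes called higher, and that call was lost with 3 of the 4 auxin libraries left out. New SOD1 RNA (0.41, adjusted p = 0.115), CCS1 (0.25, adjusted p = 0.147 in new RNA, and 0.16, adjusted p = 0.444 in total RNA) and CTA1 (-0.47, adjusted p = 0.0514, and 0.46, adjusted p = 0.172) did not pass. On the TMM scale SOD1 (1.36 and 0.83) and CCS1 (1.21 and 0.63) were called higher in the Med17 strain in new and total RNA, and CTA1 was called in total RNA (0.93, adjusted p = 0.0415) while in new RNA it turned to 0.51 (adjusted p = 0.0613). On the authors' scale SOD1 and CCS1 were called in new RNA without Med17 auxin replicate 2 (0.85 and 0.48), SOD1 there also without Med14 auxin replicate 2 (0.61), and CCS1 in total RNA without Med14 auxin replicate 1 (0.56).

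**Figure D4:**
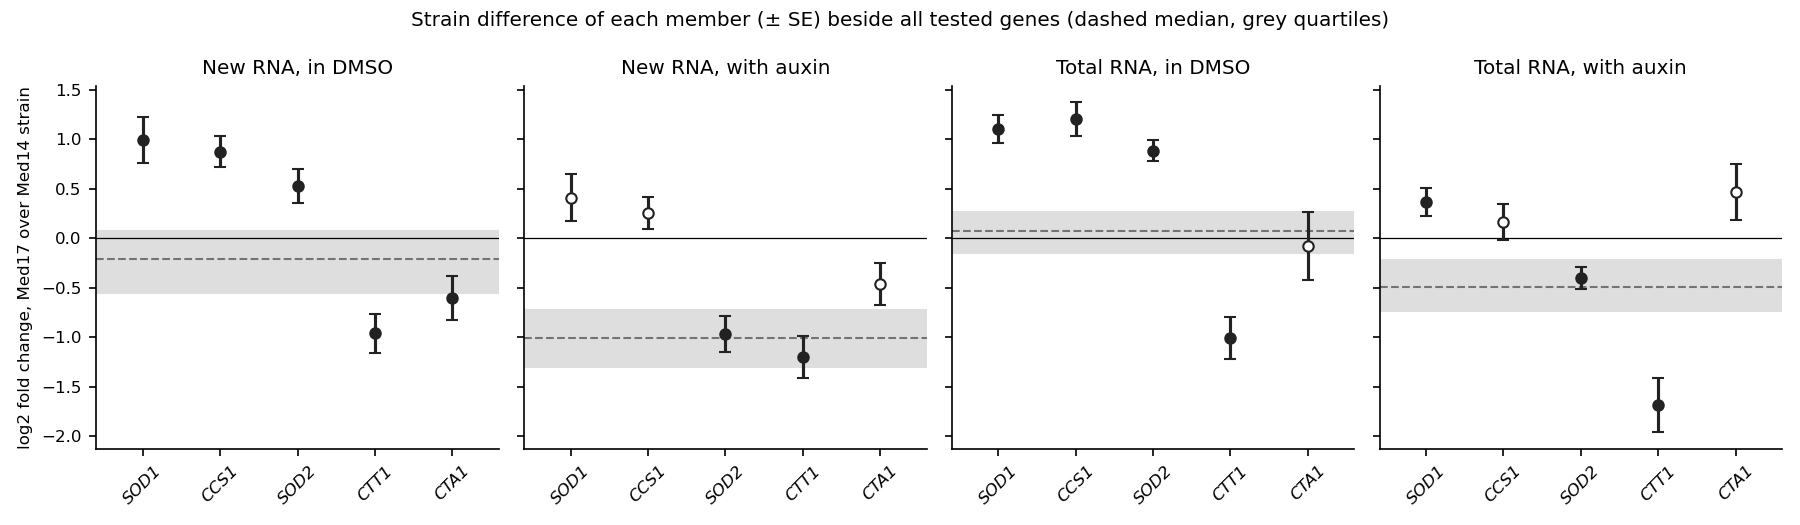
log2 fold changes of the Med17 over the Med14 strain in DMSO and with auxin (points, bars are ± SE, filled where the edgeR adjusted p is under 0.05), with the median (dashed) and quartiles (grey) of all tested genes. In DMSO SOD1, CCS1 and SOD2 lie between 0.52 and 1.20, above the grey band, and CTT1 lies at -0.96 and -1.01 below it.

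Ratios between members within a library do not depend on the scaling. The ratio of CTT1 to CTA1 per kb compares the cytosolic with the peroxisomal catalase. In new RNA it was 3.33 and 2.82 in Med14 DMSO and 1.59 and 1.30 with auxin. The Med17 values were 2.23 and 2.54 in DMSO and 1.00 and 0.737 with auxin. In total RNA it went from 5.66 and 8.37 to 2.61 and 1.34 in the Med14 strain and from 3.67 and 3.44 to 0.560 and 0.340 in the Med17 strain. The auxin libraries were lower in all 4 cases without overlap, and in the Med17 strain CTA1 became the more abundant catalase transcript per kb of total RNA.

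The ratio of SOD1 to its chaperone gene CCS1 moved differently in the 2 kinds of RNA. In total RNA it was 8.68 and 6.86 in Med14 DMSO and 10.5 and 14.0 with auxin, and 6.71 and 7.92 against 14.1 and 13.1 in the Med17 strain. In new RNA it was 4.42 and 3.99 against 2.83 and 3.60 in the Med14 strain, and 4.13 and 5.04 against 4.15 and 2.80 in the Med17 strain. Auxin libraries thus had the higher ratio in total RNA of both strains, the lower ratio in new RNA of the Med14 strain, and overlapped with DMSO in new RNA of the Med17 strain. The ratio of the cytosolic to the mitochondrial dismutase, SOD1 to SOD2, was lower with auxin in the Med14 strain, from 4.83 and 4.17 to 2.61 and 3.51 in new RNA and from 8.34 and 6.85 to 5.84 and 5.23 in total RNA. In the Med17 strain it was 5.69 and 6.79 against 8.64 and 6.78 in new RNA, which overlap, and 8.60 and 9.13 against 9.49 and 9.42 in total RNA. An exact permutation test of 2 libraries against 2 cannot give a p under 0.333, and the ratios were not tested.

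**Figure D5:**
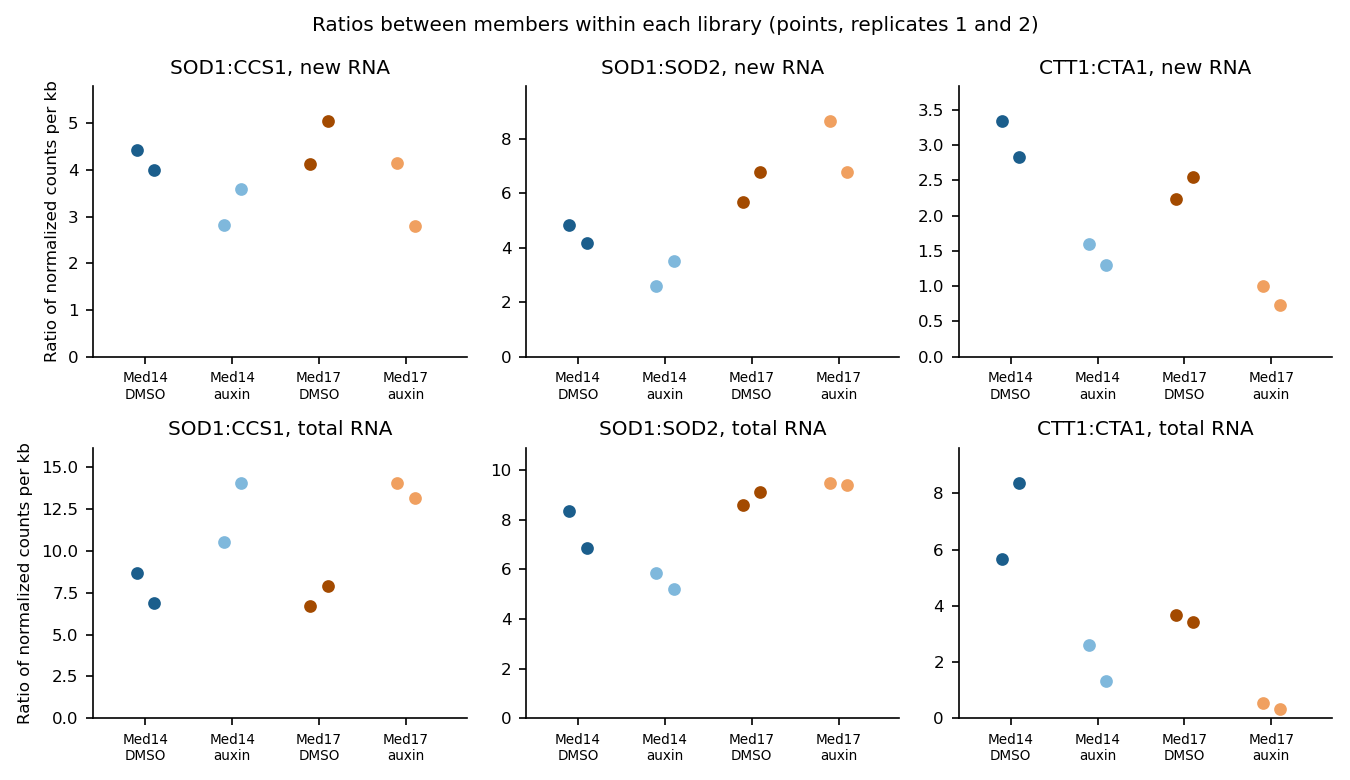
Ratios of normalized counts per kb within each library, with a point for each of the 2 libraries of a group and axes from 0. The CTT1 to CTA1 ratio is lower with auxin in every panel, down to 0.560 and 0.340 in the total RNA of the Med17 strain, and the SOD1 to CCS1 ratio is higher with auxin in total RNA.

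Across the 16 libraries, profiles were compared as log2 normalized counts less each library's median and centred for each gene within a kind of RNA, which gives likeness beyond the common drop. SOD1, SOD2 and CCS1 resembled each other, with a Pearson's r of 0.88 for SOD1 and CCS1, 0.83 for SOD1 and SOD2, and 0.67 for CCS1 and SOD2. The catalases showed no likeness to them, with r from -0.48 to -0.20, or to each other (-0.37). The libraries share groups and depth, so these are descriptions. Among 4739 well-measured genes, the profiles most like that of SOD1 were those of the cytoplasmic thioredoxin reductase gene YDR353W (0.96), the riboflavin synthesis gene YDR487C (0.95) and the chaperone gene SSA1 (0.95). CCS1 was most like the multidrug transporter gene YDR011W (0.98), the aldehyde reductase gene YNL134C (0.98) and the homocitrate synthase gene YDL182W (0.97). SOD2 was most like the nicotinamidase gene YGL037C (0.95), the trehalose synthesis gene TPS1 (0.94) and YJR106W (0.94), a neighbour of SOD1 described as a calcium homeostasis gene. CTT1 was most like HSP12 (0.88), a membrane-protecting stress gene, then YIL096C (0.83) and RAD27 (0.82), and CTA1, itself below the count minimum in total RNA, was most like SRP1 (0.97), IKI3 (0.97) and NUP159 (0.97). HSP12 was also far lower in the Med17 than the Med14 strain in DMSO, with -3.20 in new RNA (log2, SE 0.317, edgeR adjusted p = 1.47e-06) and -3.17 in total RNA (SE 0.291, adjusted p = 3.57e-05). Its likeness to CTT1 was taken over these same libraries, so this value is not separate evidence. HSP12 was the lowest of the 14 general stress genes listed below, whose medians in that comparison were 0.32 in new and 0.31 in total RNA.

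Genes that supply, regulate or work beside these enzymes were read from lists against the same backgrounds. Of all tested genes, 94.2% and 95.0% were called lower with auxin in new RNA of the Med14 and Med17 strains. In total RNA these shares were 75.1% and 87.4%. All-gene medians were -1.86 and -2.71 in new RNA and -0.76 and -1.38 in total RNA. As for the members, the directions hold on the authors' scale, and the TMM values are given beside each list. Copper handling genes, listed because Sod1 is a copper enzyme, were called lower in new RNA in 11 of 13 tested in the Med14 strain and 12 of 13 in the Med17 strain, with median log2 fold changes of -1.88 and -2.92. The lowest were the high-affinity copper transporter genes YPR124W (-2.96) in the Med14 strain and YLR411W (-5.62) in the Med17 strain, and the highest called were the ferric reductase-like gene YOL152W (-1.54) and the vacuolar copper transporter gene YHR175W (-1.87). In total RNA 8 of 11 and 10 of 11 were called lower, from YPR124W (-1.54) to the copper-sensing regulator gene MAC1 (-0.58) in the Med14 strain and from CUP1-2 (-2.59) to YHR175W (-0.51) in the Med17 strain. CUP1-1 and CUP1-2 encode the same metallothionein in near-identical copies, so reads cannot be assigned with certainty to either. New CUP1-2 RNA was higher in the Med17 strain in DMSO, from 5.12 ± 5.45 to 124 ± 31.0 normalized counts (SD, n = 2). With TMM 2 copper genes were lower and 0 higher in the Med14 strain and 3 lower and 3 higher in the Med17 strain in new RNA, with medians of 0.011 and -0.23, and in total RNA 0 lower and 1 higher, and 4 lower and 2 higher (-0.33 and -0.45).

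Manganese handling genes, which bear on Sod2, were called lower in 6 of 6 in both strains and both kinds of RNA, with median log2 fold changes of -1.95 and -2.57 in new RNA and -1.03 and -1.63 in total RNA. The manganese transporter gene SMF1 was lowest in new RNA (-2.98 and -3.99) and in the total RNA of the Med14 strain (-1.86), and ATX2 in the total RNA of the Med17 strain (-2.27). The highest were YBR290W, which directs Smf transporters to the vacuole (-1.20 and -2.12 in new RNA), and the Golgi calcium and manganese pump gene PMR1 (-0.44 and -1.09 in total RNA). With TMM 1 was lower and 1 higher in new RNA of each strain (medians -0.054 and 0.11), and in total RNA 2 lower and 1 higher in the Med14 strain and 4 lower and 0 higher in the Med17 strain (-0.31 and -0.37), with SMF1 called lower in all 4 comparisons (-1.31 to -0.82).

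Of 16 regulators known from these and related promoters, 16 were called lower in new RNA in each strain, with medians of -1.63 and -2.80. The heme-responsive activator gene HAP1 was lowest in the Med14 strain (-3.53) and the oleate regulator gene PIP2 in the Med17 strain (-3.98). The highest were YKL109W, a subunit of the heme-activated CCAAT-binding complex (-0.71), and the hypoxic repressor gene ROX1 (-1.56). In total RNA 14 of 16 and 16 of 16 were lower, from HAP1 (-2.07) to YAP1 (-0.37), the oxidative stress activator gene, and from PIP2 (-2.43) to the stress kinase gene HOG1 (-0.86). The difference of the auxin changes was called in 12 of 16 with a deeper drop in the Med17 strain in new RNA. In total RNA it was called so in 11 of 16, and it was largest for the stress activator gene YKL062W (2.02 and 2.01). Of all genes, 59.6% and 41.3% were called in that direction. The difference was called the other way for HAP1 (-0.58 and -1.0), beside 3.28% and 1.23% of all genes. With TMM 2 regulators were lower and 6 higher in the Med14 strain and 6 lower and 4 higher in the Med17 strain in new RNA (medians 0.27 and -0.12), and in total RNA 3 and 4, and 7 and 2 (0.033 and -0.27). The differences of YKL062W (1.24 and 1.47) and HAP1 (-1.37 and -1.55) were called with TMM too.

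Genes of peroxisomal fatty acid oxidation, the surroundings of Cta1, were called lower in new RNA in 14 of 14 in both strains (medians -2.04 and -3.00), and in total RNA in 10 of 12 and 12 of 12 (-0.91 and -1.48). In none of these 4 comparisons was one called higher. The acyl-CoA oxidase gene POX1, whose product makes the peroxide that Cta1 removes, was lowest in new RNA of the Med14 strain (-3.09) and the isocitrate dehydrogenase gene YNL009W in the Med17 strain (-4.34), while the carnitine acetyltransferase gene CAT2 (-0.92) and SPS19 (-1.99) were highest. In total RNA FOX2 was lowest (-1.53 and -2.69), and the highest called were the import receptor gene PEX5 (-0.59) and SPS19 (-0.83). The highest value of any of the 12 tested in the Med14 strain was -0.19, which was not called. With TMM 5 were lower and 3 higher in the Med14 strain and 6 lower and 1 higher in the Med17 strain in new RNA (medians -0.17 and -0.31), and 0 and 3 were lower and 0 higher in total RNA (-0.19 and -0.23).

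General stress genes, the company of CTT1, were called lower in new RNA in 13 of 14 in the Med14 strain and 14 of 14 in the Med17 strain (medians -2.46 and -4.06). HSP12 was lowest in the Med14 strain (-4.34) and the hexokinase gene YFR053C, which overlaps a dubious reading frame, in the Med17 strain (-6.23). The small heat shock gene YBR072W rose in the Med14 strain (0.86, SE 0.216, edgeR adjusted p = 0.00104), beside 0.560% of all genes called higher, and fell in the Med17 strain (-3.57, SE 0.249, adjusted p = 1.01e-10), a difference of 4.43. In total RNA 10 of 14 were lower and 1 higher, again YBR072W (0.76), in the Med14 strain, and 13 of 14 lower in the Med17 strain (medians -0.74 and -1.85), from DDR2 (-1.58) in the former and from YFR053C (-2.78) to YOR173W (-1.09) in the latter. The aldehyde dehydrogenase gene YMR169C was highest in new RNA of the Med17 strain (-2.27). In DMSO 2 of the 14 stress genes were called lower and 5 higher in new RNA of the Med17 strain, beside 24.1% and 6.04% of all genes. In total RNA 3 were lower and 5 higher there, beside 5.83% and 9.69%. With TMM 9 were lower and 2 higher with auxin in new RNA of the Med14 strain and 11 lower and 0 higher in the Med17 strain (medians -0.57 and -1.40), and in total RNA 3 and 3, and 8 and 1 (-0.031 and -0.60). YBR072W was again higher in the Med14 strain (2.74 in new and 1.47 in total RNA) and lower in new RNA of the Med17 strain (-0.90, adjusted p = 0.0105).

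The other peroxide-removing enzymes, peroxiredoxins and peroxidases, were called lower in 9 of 9 in new RNA in both strains, with medians of -2.46 and -4.01. The glutathione peroxidase gene GPX2 was lowest in both (-3.28 and -6.44), and the mitochondrial peroxiredoxin gene YBL064C (-1.93) and the cytosolic peroxiredoxin gene TSA1 (-2.87) were highest. In total RNA 6 of 9 and 9 of 9 were lower (medians -0.73 and -1.65), from GPX2 (-1.55 and -3.31) to the cytochrome c peroxidase gene YKR066C (-0.53) and the peroxidase gene HYR1 (-0.54). With TMM 6 were lower in the Med14 strain and 8 in the Med17 strain in new RNA, with 0 higher (medians -0.58 and -1.34), and in total RNA 1 was lower and 3 higher, and 4 lower and 2 higher (-0.015 and -0.41). The difference of the auxin changes was called with a deeper drop in the Med17 strain in 7 of 9 in new RNA. These ran from AHP1 (1.01) to GPX2 (3.16). In total RNA 8 of 9 were called so, from HYR1 (0.55) to YBL064C (1.97). Of all genes, 59.6% in new RNA and 41.3% in total RNA were called in that direction. In the other lists such differences were called in 5 of 13 copper genes (YKL220C at 1.01 to YLR411W at 3.32), 6 of 6 manganese genes (YHR050W at 0.57 to SMF1 at 1.01), 8 of 14 peroxisomal genes (FAA2 at 0.82 to PXA2 at 2.01) and 12 of 14 stress genes (TFS1 at 0.97 to YBR072W at 4.43) in new RNA. In total RNA they were called in 4 of 11 (YDR270W at 0.79 to YLL009C at 1.22), 4 of 6 (YHR050W at 0.49 to ATX2 at 1.26), 3 of 12 (PEX5 at 0.83 to PXA2 at 1.59) and 9 of 14 (GPD1 at 0.88 to YBR072W at 2.29). With TMM a difference above 0 was called in 3 peroxide-removing genes, 0 copper, 0 manganese, 3 peroxisomal and 9 stress genes in new RNA, beside 16.4% of all tested genes on that scale. In total RNA it was called in 2, 0, 0, 0 and 3, beside 5.64%.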

How the data were processed

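Per the submitters' processing notes, bcl2fastq 2.17.1.14 did the demultiplexing and sacCer3 was the build. Libraries were stranded, per the labels' protocols. For the aligner, the counter and its strand setting the sources used here say nothing. The authors deposited raw read counts per gene and a normalized count, a signal in which each library's raw counts are multiplied by 1 constant. Per the file headers they also deposited the same signal per kilobase of median transcript length. How the constants were derived is not stated, and S. pombe counts were not analysed here. The source and treatment fields of the labels set the groups. Gene names came from the files, and where they give none the systematic ID and deposited description were used, except that SOD2 and CTA1 were named by their IDs.

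The two-sided quasi-likelihood F test of edgeR 4.0.16 (R 4.3.3) was run on raw counts, in 1 fit for the 8 new RNA libraries and 1 for the 8 of total RNA, with group as sole factor and scaling by the authors' constants. Genes kept by filterByExpr were tested, 6072 for new RNA and 5625 for total RNA, among them all 5 members in both. A call needed an adjusted p (Benjamini-Hochberg, over all tested genes) under 0.05. SEs and 95% intervals were derived from the log2 fold change and its F value. p-values set a change against the spread between 2 biological replicates a group, with the estimate of spread shared over genes. Profiles used log2(normalized count + 1) of genes with a mean raw count of at least 50 in both tables. Alternatives were TMM, median-of-ratios and SCR1 with RPR1 scaling, the DESeq2 1.42.0 test, no filter, a mean count of at least 50, each library left out, a replicate block and, added after the data were seen, a block within each strain. The members and lists were chosen with earlier results of these data known. Named genes were the members, the tagged genes, the 3 most alike profiles for each member and the lowest and highest called gene of each list in each auxin comparison and in the difference of changes, and others were named after their values were seen. Replicate libraries differed by more than counting noise (chi-square per degree of freedom 6.77 to 28.7), so none was taken as a repeat deposit, and that they are biological replicates is from the study's design text. The procedure was tested on simulated data in which most genes did not change, unlike these data, in which most were lower with auxin.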

Additional observations from a re-analysis of the deposited data

Results flagged for a closer look

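The auxin changes of 3 genes, SOD1, CCS1 and SOD2, differed between the strains in 1 or both kinds of RNA by a test of the difference itself (Med14 change minus Med17 change, log2, edgeR quasi-likelihood with Benjamini-Hochberg adjustment). In new RNA these were CCS1 (0.62, adjusted p = 0.0220) and SOD2 (1.50, adjusted p = 0.000108), beside 59.6% of all genes called in that direction. The CCS1 value lay under the all-gene median of 0.82 and turned to -0.16 with TMM, and its call was lost with 4 of the 8 libraries when left out in turn. In total RNA they were SOD1 (0.74, adjusted p = 0.0137), CCS1 (1.04, adjusted p = 0.00732) and SOD2 (1.29, adjusted p = 0.000390), beside 41.3% of all genes, and SOD2 was also called with TMM. Beside these values, the same genes were higher in the Med17 strain in DMSO, by 0.88 for CCS1 and 0.52 for SOD2 in new RNA and by 1.10, 1.20 and 0.89 for SOD1, CCS1 and SOD2 in total RNA. Each difference equals, by its definition, the strain value in DMSO less the strain value with auxin. Total SOD1 RNA was also higher in the Med17 strain with auxin, by 0.37, and that call depended on single libraries. With auxin, SOD2 was lower in the Med17 strain in both kinds of RNA (-0.97 and -0.40), near the all-gene medians of -1.0 and -0.49 and not called with TMM (-0.019 and 0.061), and CCS1 did not differ beyond its error (0.25 and 0.16).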

How the results depend on the processing

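Of 50 member values (5 genes, 10 comparisons), 25 kept direction and call with TMM, 25 with median-of-ratios, 33 with SCR1 and RPR1 scaling, 49 with DESeq2, 49 without a filter and 44 of 45 with a mean count of at least 50. With the replicate block across strains 50 of 50 did. The numbers mark biological replicates, and the labels do not say whether same-numbered libraries share a culture or day. Deviations of same-numbered DMSO and auxin libraries of a strain correlated at 0.43 (Med14) and 0.18 (Med17) in new RNA and at 0.13 and 0.27 in total RNA, and those across strains at -0.36 to 0.049. A replicate block within each strain, chosen after seeing the data, kept direction and call of 30 of 30 auxin changes and differences. Where a call or direction moved, the cause was not tested.

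Members called lower and higher with auxin in new RNA were 3 and 1 in each strain with TMM and with median-of-ratios, against 5 and 0. In total RNA they were 1 and 2 in the Med14 strain with both of these scalings, against 4 and 0, and 2 were lower in the Med17 strain, against 4. The CTA1 rise was not tested at a mean count of at least 50, giving 0 higher. Differences of the changes in new RNA gave 1 lower and 1 higher with TMM and median-of-ratios, and 4 higher with SCR1 and RPR1, against 0 and 2. In total RNA, 1 was higher with TMM and median-of-ratios and 0 with SCR1 and RPR1, against 3. For the strains in DMSO, 1 member was lower in new RNA with TMM, median-of-ratios, DESeq2 or no filter and 0 with SCR1 and RPR1, against 2, and 0 were higher in total RNA with SCR1 and RPR1, against 3. With auxin, 0 were lower in new RNA with TMM and median-of-ratios, against 2, and 2 and 3 higher, against 0. In total RNA 1 was lower with the 3 scalings, against 2, and 3 (TMM), 3 (median-of-ratios) and 0 (SCR1 and RPR1) higher, against 1.

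With single libraries left out, the members called higher in the difference of changes ranged from 1 to 3 in new RNA and from 2 to 4 in total RNA. Those of the Med14 total RNA change ranged from 0 to 1 higher. For the strains in DMSO they were 1 lower and 1 to 2 higher in new RNA and 0 to 1 lower in total RNA. With auxin they were 0 to 2 higher in new RNA and 1 to 2 lower and 0 to 2 higher in total RNA.

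Values that changed sign with TMM and median-of-ratios were, in new RNA, CTA1 in the Med14 (0.71 and 0.68) and Med17 strain (1.64 and 1.65) and CTT1 in the Med17 strain (0.16 and 0.18). They also include the differences of SOD1 (-0.19 and -0.23), CCS1 (-0.16 and -0.21) and CTT1 (-0.54 and -0.58), and, between strains with auxin, CTA1 (0.51 and 0.56) and SOD2 (0.033 with median-of-ratios). In total RNA they were SOD2 in the Med14 strain (0.38 and 0.41) and between strains with auxin (0.061 and 0.12). SCR1 and RPR1 scaling turned, in new RNA, the difference of CTA1 (0.73) and its strain value in DMSO (0.039), and CCS1 between strains with auxin (-0.030, and -0.12 in total RNA). Leaving out Med17 auxin replicate 1 turned SOD1 (-0.21 to 0.85 over the libraries left out) and CCS1 (-0.013 to 0.48) between strains with auxin in new RNA. Leaving out Med14 auxin replicate 2 turned CCS1 there in total RNA (-0.14 to 0.56), and leaving out Med14 DMSO replicate 1 turned CTA1 between strains in DMSO in total RNA (-0.35 to 0.26).

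Counts of all genes called lower and higher with auxin were 1414 and 1540 (Med14) and 1717 and 1741 (Med17) in new RNA with TMM, and 992 and 1105, and 1742 and 1502, in total RNA. With SCR1 and RPR1 scaling 3042 genes were lower and 119 higher in Med14 new RNA (median -0.89), and 5747 and 113 in Med17 new RNA (-2.62). On that scale 5 of 16 regulators and 6 of 13 copper genes were lower in Med14 new RNA, and 16 and 12 in Med17 new RNA. Differences above 0 were then called for 75.1% of genes in new RNA and 0.8% in total RNA. Depth limits total CTA1 RNA, at 15 to 62 raw counts per library.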
